A study of Mus musculus with 12 samples.

Results

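The organic ion and xenobiotic transporters are membrane proteins. Many of them move drugs, hormones, bile acids, urate, creatinine and uremic toxins across the walls of the proximal tubule. Members were chosen by gene symbol, as every Slc22a, Slco, Slc47a, Abcb, Abcc and Abcg gene with a number after the family name, which gave 69 of the 40213 symbols in the count files. The set held 26 Slc22a, 15 Slco, 2 Slc47a, 10 Abcb, 10 Abcc and 6 Abcg genes. Chosen by symbol alone, it also takes in genes of other sites and roles, such as mitochondrial and lysosomal transporters. RNA came from whole kidney of C57BL/6 mice in 3 groups of 4 libraries. Controls received saline by intraperitoneal injection and a normal diet. The chronic kidney disease (CKD) group received saline injections and a diet with 2% adenine, a purine that forms crystals in the tubules. The colchicine group received colchicine, a drug that binds tubulin, at 0.3 mg/kg per day by the same route, on a diet labelled as 2% adenine in replicate 1 and 3, 4 and 5% in replicates 2, 3 and 4. The series' design names no adenine dose and presents these libraries as replicates of a single condition, so whether the percentages are true doses or a labelling error is not known. If they are true, colchicine and the higher labelled adenine cannot be told apart in those 3 libraries. The sex and age of the mice, the days on diet and the animal behind each library are not given in the labels, so the p-values reflect only how much these libraries vary within a group.

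In the proximal tubule, secretion of organic ions runs in series. Organic anion and cation transporters of the Slc22a family take solutes up from blood at the basolateral membrane, and Slc47a antiporters and ATP-driven Abc pumps release them into urine at the brush border. Slco genes encode the organic anion transporting polypeptides, which carry bile acids, steroid conjugates, thyroid hormones and prostaglandins. Several Slc22a and Abcg proteins also reabsorb or secrete urate, and colchicine is itself a substrate of the Abcb1 pumps.

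Library totals ran from 22200909 to 38253100 counts. Levels are in CPM, counts per 1000000 after TMM scaling (trimmed mean of M-values). Calls come from edgeR's quasi-likelihood test over the 17841 genes that passed a filter on low counts, with an adjusted p under 0.05 counting as called. Markers of the proximal tubule fitted the kidney label in the controls, where the 10 listed genes summed to 12684 to 13949 CPM. In CKD that sum was 1112 to 1455 CPM and all 10 genes were called lower. With colchicine it was 592 to 1111 CPM, and 5 of the 10 were called lower than in CKD. The 10 listed macrophage genes moved the other way, from 106 to 128 CPM in the controls to 1925 to 1991 CPM in CKD and 1299.7 to 1902 CPM with colchicine. Fibroblast markers summed to 364 to 433 CPM, 3149 to 3747 CPM and 3924 to 5088 CPM in the 3 groups, with 6 of 6 called higher in CKD. Of 7 hepatocyte markers, Serpina3k, Cps1, Ahsg and Hamp were under 1 CPM in every group, and the sum was 147 to 195 CPM, 36.2 to 49.7 CPM and 8.9 to 30.02 CPM. Mitochondrial protein-coding transcripts took 40.8 to 45.9% of counts in the controls, 16.5 to 17.0% in CKD and 14.3 to 21.3% with colchicine. In whole tissue, fewer cells of a type and less RNA per cell cannot be told apart.

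Control kidney held most of its transporter RNA in few genes. The summed level of the 69 members was 7277 ± 276 CPM (SD, n = 4) in the controls, 1209 ± 66.7 CPM in CKD and 940.8 ± 97.8 CPM with colchicine. As a share of all counts before any scaling, members took 0.418 to 0.476% in the controls, 0.147 to 0.160% in CKD and 0.113 to 0.130% with colchicine. In the controls 5 genes, Slc22a6, Slc22a12, Slc22a8, Slc47a1 and Slc22a2, made up 50.2% of the summed CPM. In CKD the leading 5 were Slco3a1, Slc47a1, Slc22a8, Abcg2 and Slc22a6, with 36.4% of a smaller sum.

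**Figure D1:**
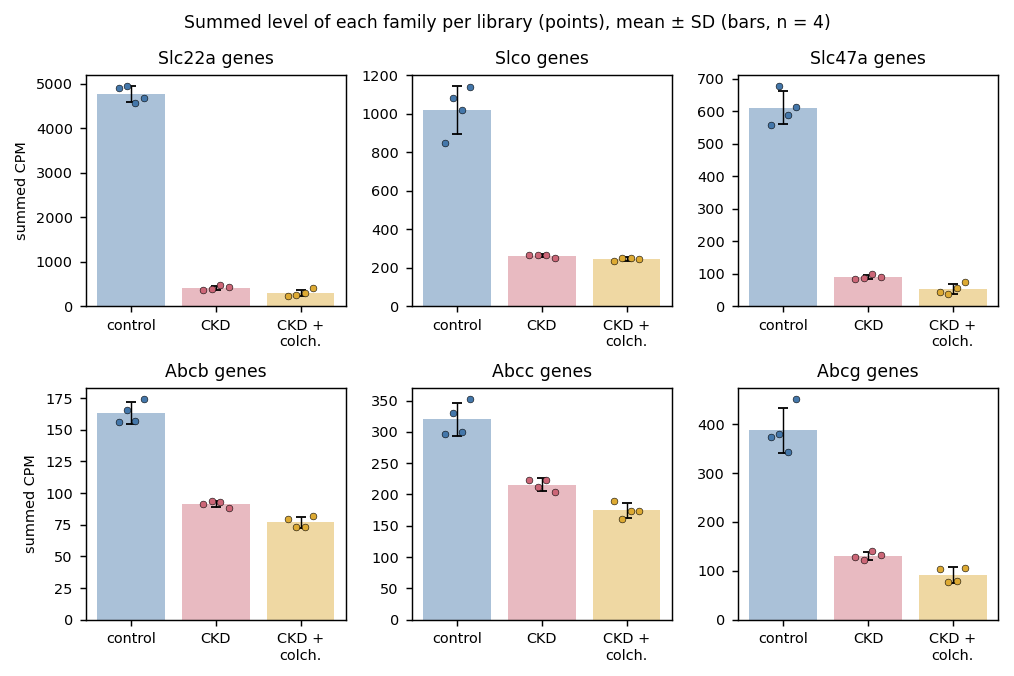
Summed CPM of the Slc22a, Slco, Slc47a, Abcb, Abcc and Abcg genes (vertical axes, 1 panel per family) in each library (points), with group means (bars) and SD (error lines, n = 4). The Slc22a sum was 4773 ± 182 CPM in the controls, 417 ± 51.1 CPM in CKD and 299 ± 73.9 CPM with colchicine, and the control points lie above all others in every family.

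By family, the Slc22a sum dropped furthest, 11.4-fold from control to CKD, beside 6.74-fold for Slc47a, 3.89-fold for Slco, 2.96-fold for Abcg, 1.78-fold for Abcb and 1.48-fold for Abcc. The proximal tubule marker sum dropped 10.5-fold over the same groups. Within each library, the Slc22a sum was 0.336 to 0.377 of the marker sum in the controls, 0.314 to 0.343 in CKD and 0.266 to 0.433 with colchicine, so the group ranges of this ratio overlapped. The plot of family sums shows the 12 libraries.

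Of the 69 members, 53 passed the filter and were tested. The other 16 (Slco1a5, Slc22a14, Slc47a2, Slco6b1, Abcb11, Slco1c1, Slco6d1, Abcg5, Slco1b2, Slc22a20, Slc22a27, Slco6c1, Abcg8, Slc22a16, Abcc12 and Abcb5) had at most 19 counts in any library, and 6 of them had none in the controls. Transporters known from liver among them include the bile salt export pump Abcb11, the sterol pumps Abcg5 and Abcg8 and the hepatic uptake carrier Slco1b2. Others are genes known from testis, the Slco6 genes and Slc22a16. RefSeq lists Slco6b1 as a long non-coding RNA.

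In CKD 48 of the 53 tested members were called, 12 higher and 36 lower than control. Over all genes tested 67.4% were called, 34.1% higher and 33.4% lower. Members called with a change of at least 2-fold numbered 30 lower and 8 higher, beside 15.4% and 18.7% of all genes. Groups did not overlap for 44 members, beside 66.2% of all genes. The median log2 fold change over the tested members was -1.26, and over all genes 0.04. The Slc22a family had 19 members lower and 1 higher of 22, with a median of -3.48. Of 9 Slco genes, 6 were lower and 3 higher, with a median of -1.26. Abcb had 5 lower and 1 higher of 8, Abcc 4 lower and 4 higher of 9, and Abcg 1 lower and 3 higher of 4. Scaling by library totals alone moved the median of all genes to 1.05 and the members' split to 20 higher and 26 lower, with Abcb10, Abcc10 and Slc22a17 called higher instead of lower. Abcb9, Abcc9, Slc22a3, Slc22a23, Slco1a4 and Slco4a1 were among the members that lost their lower call under that scaling.

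**Figure D2:**
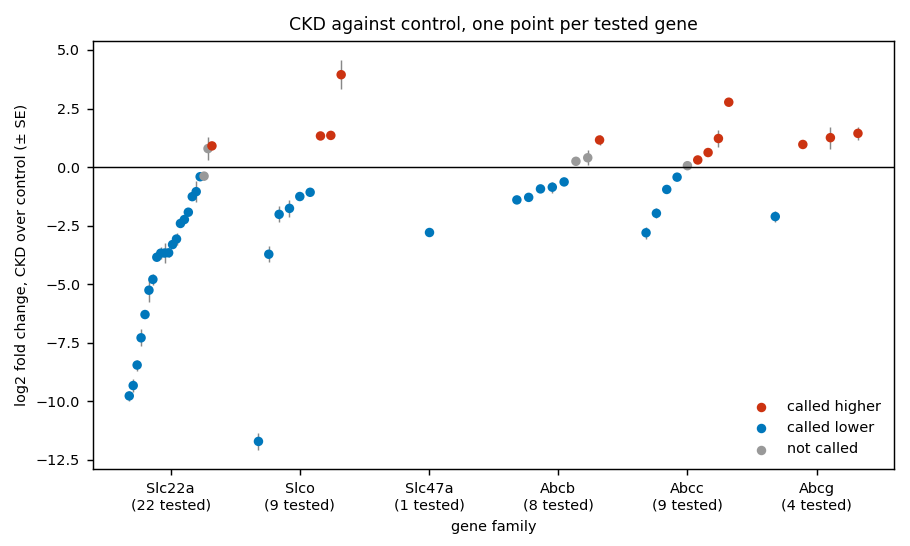
Log2 fold change of CKD over control (vertical axis, ± SE) for the 53 tested genes, 1 point each, in 6 families (horizontal axis), ordered by value within a family and coloured by call. The Slc22a points reach -9.77 at Slc22a7 and the Slco points -11.71 at Slco1a1, while the highest point is Slco5a1 at 3.94.

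Promoters of members were searched for 2 motifs, because the proteins that bind them are known regulators of kidney transporter genes. RefSeq promoters of the GRCm38.p6 build, from 250 bases before to 50 after a start site, were at hand for 54 of the 69 members. The HNF4 direct repeat, AGGTCA in 2 copies with 1 base between them, was searched on both strands with up to 2 mismatches. It was found in 3 members, Slco1a1, Slco4a1 and Slc22a20, and in 4.4% of all 27025 genes with a promoter. An exact antioxidant response element, TGACNNNGC on either strand, was found in 9 members and in 14% of all genes. The 9 were Abcc2, Abcc4, Abcc10, Abcb1a, Slco4c1, Slco6b1, Slco6d1, Slc22a20 and Slc22a27. Of the 29 members with a promoter that were called lower in CKD, 2 held the HNF4 repeat and 3 the antioxidant element. Of the 6 called higher, 0 held the HNF4 repeat and 1, Abcc4, the antioxidant element. These matches describe letters in the window and show no binding. The promoter of Slco1a1, which fell most, is printed with those of Abcc2, Slco4c1 and Slc22a6. Abcc2 and Slco4c1 fell in CKD, were lower again with colchicine and held antioxidant elements. Slc22a2, Slc22a5, Slc22a18, Slco1a6 and Abcg2 were also lower in both comparisons, but their promoters held neither motif. Slc22a6, the most abundant member by CPM in the controls, also held neither motif. Capitals mark the matches: the HNF4 repeat in Slco1a1 and antioxidant elements in Abcc2 and Slco4c1.
Slco1a1, chr6:141946913-141947212 (minus strand): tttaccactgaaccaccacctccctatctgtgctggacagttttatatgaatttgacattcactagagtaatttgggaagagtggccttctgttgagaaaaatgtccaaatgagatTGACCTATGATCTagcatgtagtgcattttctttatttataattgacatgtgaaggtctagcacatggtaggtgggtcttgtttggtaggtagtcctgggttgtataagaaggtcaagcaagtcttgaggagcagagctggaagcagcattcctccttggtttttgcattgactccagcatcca
Abcc2, chr19:43782058-43782357 (plus strand): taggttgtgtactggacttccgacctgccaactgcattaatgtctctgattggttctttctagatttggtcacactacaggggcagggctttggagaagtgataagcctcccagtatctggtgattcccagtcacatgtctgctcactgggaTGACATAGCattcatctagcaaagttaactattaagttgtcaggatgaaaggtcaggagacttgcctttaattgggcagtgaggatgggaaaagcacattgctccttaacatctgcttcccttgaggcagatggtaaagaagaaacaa
Slco4c1, chr1:96872122-96872421 (minus strand): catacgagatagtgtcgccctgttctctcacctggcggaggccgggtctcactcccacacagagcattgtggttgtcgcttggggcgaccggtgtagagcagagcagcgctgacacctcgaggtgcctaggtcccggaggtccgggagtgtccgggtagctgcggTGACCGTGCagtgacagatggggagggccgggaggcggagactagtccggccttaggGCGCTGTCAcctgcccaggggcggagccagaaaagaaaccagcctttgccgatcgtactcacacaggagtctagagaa
Slc22a6, chr19:8617746-8618045 (plus strand): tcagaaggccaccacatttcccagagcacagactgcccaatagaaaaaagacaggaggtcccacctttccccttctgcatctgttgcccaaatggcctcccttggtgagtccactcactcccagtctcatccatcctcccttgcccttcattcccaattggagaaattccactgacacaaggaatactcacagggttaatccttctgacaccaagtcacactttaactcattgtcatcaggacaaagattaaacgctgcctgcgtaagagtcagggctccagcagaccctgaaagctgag

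Among the organic anion transporters, Slc22a6 (OAT1) and Slc22a8 (OAT3), neighbouring genes on chromosome 19, take up most anionic drugs and uremic toxins from blood. Slc22a6 stood at 978, 1064, 954 and 939 CPM in the controls, 68, 65.8, 97.8 and 76.5 CPM in CKD and 27.5, 35.7, 42 and 70.8 CPM with colchicine. The lowest control was 9.6 times the highest other library, and the CKD and colchicine ranges met only at colchicine replicate 4. The log2 fold change of CKD over control was -3.67 ± 0.25 (SE), adjusted p = 3.12e-08, and that of colchicine over CKD -0.81 ± 0.23 (SE), adjusted p = 0.0369. The latter call was lost in 8 of 19 alternatives. Slc22a8 stood at 772, 803, 673 and 703 CPM in the controls, 68.9, 75.9, 113 and 93.5 CPM in CKD and 29.3, 46.1, 57.9 and 83.4 CPM with colchicine. It fell in CKD by 3.07 on the log2 scale (SE 0.28, adjusted p = 6.75e-07), and 3 of the 4 colchicine libraries lay below all CKD libraries, without a call (log2 fold change -0.70 ± 0.26 (SE), adjusted p = 0.0869). DESeq2 and limma-voom did call Slc22a8 lower with colchicine than in CKD, as did edgeR without colchicine replicate 4, and its adjusted p ran from 3.18e-04 to 0.211 over the alternatives. The ratio of Slc22a8 to Slc22a6 counts, which does not depend on library scaling, was 0.705 to 0.789 in the controls, 1.01 to 1.22 in CKD and 1.07 to 1.38 with colchicine. It was higher in CKD than in control in 4 of 4 libraries (exact two-sided permutation test, p = 0.0286, the smallest 4 against 4 libraries allow; adjusted p = 0.0429 over 9 ratio tests). Its CKD and colchicine ranges overlapped (exact permutation p = 0.314). The 3 ratio pairs were chosen after their values were seen, which the adjustment over 9 tests does not cover.

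Slc22a7 (OAT2), which carries cyclic nucleotides and other small anions, all but disappeared. Its levels were 207, 132, 173 and 147 CPM in the controls, 0.0703, 0.249, 0.208 and 0.204 CPM in CKD and 0.19, 0.0942, 0.0806 and 0.104 CPM with colchicine. The 8 libraries of the adenine groups lay at or below 0.249 CPM, and CKD differed from control by -9.77 ± 0.23 (SE), adjusted p = 2.31e-13. Slc22a12 (URAT1), the apical exchanger that reabsorbs urate, had the highest level per kilobase of transcript in the controls. It was at 905, 881, 812 and 778 CPM in the controls, 26.8, 27.7, 35.5 and 31.7 CPM in CKD and 14.6, 19.8, 21.9 and 35 CPM with colchicine. The fall in CKD was -4.79 ± 0.23 (SE), adjusted p = 3.24e-10, and 3 of the 4 colchicine libraries lay below the CKD range without a call (log2 fold change -0.42 ± 0.20 (SE), adjusted p = 0.159).

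A row of mouse Slc22a genes lies beside Slc22a6, Slc22a8 and Slc22a12 on chromosome 19, among them Slc22a19, Slc22a26, Slc22a28, Slc22a29 and Slc22a30; the roles of most are less well known. Slc22a28 was at 113, 131, 126 and 158 CPM in the controls, 0.387, 0.178, 0.149 and 0.117 CPM in CKD and 0.38, 0.0942, 0.101 and 0.278 CPM with colchicine. Slc22a30 was at 139.7, 176, 167 and 196 CPM in the controls, 0.281, 0.499, 0.476 and 0.643 CPM in CKD and 0.435, 0.141, 0.0806 and 0.209 CPM with colchicine. Both dropped from above 100 CPM to below 1 CPM in every adenine library. Their log2 fold changes in CKD were -9.32 ± 0.26 and -8.45 ± 0.23 (adjusted p = 1.53e-12 and 1.44e-12). The split between these 2 is uncertain, since 67% of the 31-base words in GENCODE vM21 transcripts of Slc22a28 also occur in Slc22a30.

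Slc22a19 stood at 83.2, 73.4, 87.1 and 96.9 CPM in the controls, 0.844, 0.997, 1.43 and 1.02 CPM in CKD and 0.815, 0.612, 0.906 and 0.696 CPM with colchicine. Slc22a26 stood at 45.6, 27.6, 35.9 and 38.8 CPM in the controls, 1.48, 0.356, 1.31 and 0.701 CPM in CKD and 1.52, 0.141, 0.322 and 0.313 CPM with colchicine. Slc22a22 (OAT-PG), a prostaglandin carrier on chromosome 15, stood at 87.3, 116, 105 and 133 CPM in the controls, 0.492, 0.427, 1.16 and 0.672 CPM in CKD and 0.706, 0.118, 0.181 and 0.8 CPM with colchicine. In each of the 3 the lowest control was 18.1 to 75.2 times the highest adenine library, and colchicine and CKD overlapped. Their log2 fold changes in CKD were -6.29 ± 0.15, -5.25 ± 0.50 and -7.29 ± 0.36, with adjusted p of 2.31e-13, 1.86e-06 and 2.25e-09. Slc22a29, a lower-level neighbour, was at 2.4 to 4.2 CPM in the controls and 0.175 to 0.356 CPM in CKD (log2 fold change -3.67 ± 0.41, adjusted p = 1.16e-06). It shares 39.6% of its 31-base words with Slc22a27, so reads may be split between these genes. Slc22a13, a urate and nicotinate carrier, was at 79.2 to 106 CPM in the controls and 7.28 to 10.5 CPM in CKD (log2 fold change -3.31 ± 0.14, adjusted p = 2.93e-11).

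The depth of these falls went beyond the listed tubule markers for 4 members. The proximal tubule markers ranged in CKD from -0.96 to -7.98 on the log2 scale, the lowest being Slc7a13, a cystine transporter of the last proximal segment (959 ± 83.2 CPM in control and 3.76 ± 1.6 CPM in CKD). Slco1a1, Slc22a7, Slc22a28 and Slc22a30 were below that value. The difference between these genes and the markers was not tested.

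Organic cations, among them creatinine and metformin, enter the tubule cell through Slc22a2 (OCT2), among others, and leave it through Slc47a1 (MATE1). Slc22a2 stood at 525, 492, 449 and 436 CPM in the controls, 35.4, 33.4, 44.4 and 37.3 CPM in CKD and 18.1, 18.5, 25.3 and 34.9 CPM with colchicine. The lowest control was 9.83 times the highest other library, and colchicine replicate 4 lay within the CKD range while the other 3 lay below it. Its log2 fold changes were -3.66 ± 0.19 (SE), adjusted p = 4.57e-10 in CKD over control and -0.64 ± 0.17 (SE), adjusted p = 0.0273 in colchicine over CKD. The latter call was lost in 7 of 19 alternatives.

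Slc47a1 stood at 558, 678, 589 and 614 CPM in the controls, 85.4, 87.5, 99.8 and 89.1 CPM in CKD and 45.1, 37.8, 56.5 and 73.3 CPM with colchicine. Its 3 groups did not overlap in any pair. CKD over control was -2.75 ± 0.16 (SE), adjusted p = 1.51e-09, and colchicine over CKD -0.77 ± 0.16 (SE), adjusted p = 0.00762. This call held under all alternatives tried. Slc47a2, the other antiporter of the family, was not tested at its low level. The cation carrier Slc22a3 was near 1 CPM, at 0.408 to 2.5 CPM in the controls and 0.499 to 0.818 CPM in CKD, with overlapping groups and a lower call (-1.05 ± 0.44 (SE), adjusted p = 0.0464) that limma-voom did not make and that was lost without control replicate 2 or 4 or CKD replicate 1, 2 or 3.

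Carnitine and ergothioneine carriers form a cluster on chromosome 11. Slc22a5 (OCTN2), which recovers carnitine from urine, stood at 132, 145, 144 and 156 CPM in the controls, 29.5, 30.1, 32.6 and 29.9 CPM in CKD and 25.8, 17.8, 22.8 and 24.8 CPM with colchicine. All 3 groups were separate. CKD over control was -2.24 ± 0.10 (SE), adjusted p = 5.37e-11, and colchicine over CKD -0.43 ± 0.10 (SE), adjusted p = 0.0139. Slc22a4 (OCTN1), the ergothioneine carrier, stood at 59.2, 79.6, 72.7 and 79.4 CPM in the controls, 18.7, 19.2, 20.2 and 18.5 CPM in CKD and 15, 14.8, 17.9 and 17.1 CPM with colchicine. A fall in CKD was called (-1.93 ± 0.10 (SE), adjusted p = 1.90e-10), and its colchicine libraries lay below all CKD libraries without passing the test (-0.24 ± 0.10 (SE), adjusted p = 0.109). Slc22a21, the third gene of that cluster, was not called (log2 fold change -0.38 ± 0.18 (SE), adjusted p = 0.0684). It shares 32.3% of its 31-base words with Slc22a5, so reads of the 2 may be split.

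Slc22a18, an orphan carrier of the family, was second per kilobase of transcript in the controls. Its levels were 402, 412, 366 and 395 CPM in the controls, 26.3, 25, 30.9 and 27.1 CPM in CKD and 19.8, 18.2, 18.1 and 26.7 CPM with colchicine. It fell in CKD (-3.85 ± 0.12 (SE), adjusted p = 1.83e-12), and was lower again with colchicine (-0.41 ± 0.11 (SE), adjusted p = 0.0292), although colchicine replicate 4 lay inside the CKD range. The latter call was lost in 7 of 19 alternatives. Of the remaining Slc22a genes, Slc22a23 fell (-1.26 ± 0.13) and Slc22a17, known as a lipocalin 2 receptor, was called lower with overlapping groups (-0.41 ± 0.16, adjusted p = 0.0312). That call was lost under limma-voom, upper-quartile scaling and no count filter, and without control replicate 3 or 4 or CKD replicate 2, 3 or 4. Slc22a15 was the single Slc22a gene called higher, from 3.77 to 4.64 CPM to 7.47 to 8.66 CPM (0.91 ± 0.12 (SE), adjusted p = 5.97e-06). Slc22a13b, listed by RefSeq as a transcribed pseudogene, was not called.

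**Figure D3:**
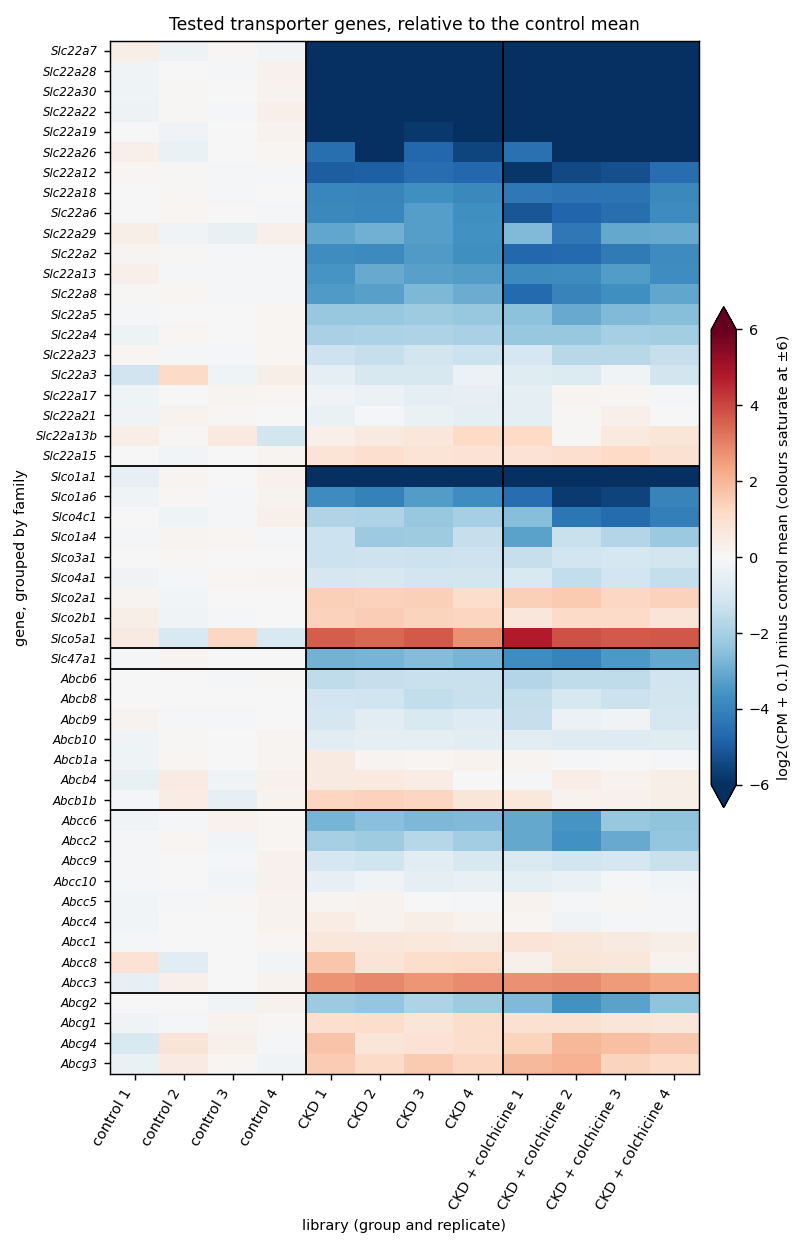
Log2(CPM + 0.1) of 51 of the 53 tested genes (rows, grouped by family) in each of the 12 libraries (columns), minus the mean of the 4 controls; blue is lower, red higher, and colours saturate at 6. The Slc22a rows from Slc22a7 down to Slc22a23 are blue in the adenine columns, and red marks Slco5a1, Slco2a1, Slco2b1, Abcc3, Abcg1, Abcg3 and Abcg4.

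Slco genes split into 6 that fell in CKD, of which Slco1a1 was nearly lost, and 3 that rose. Slco1a1 (OATP1A1), a carrier of steroid sulfates and bile acids that is plentiful in mouse kidney and liver, stood at 331, 523, 478 and 556 CPM in the controls, 0.106, 0.142, 0.179 and 0.117 CPM in CKD and 0.489, 0.0706, 0.161 and 0.0348 CPM with colchicine. The lowest control was 677 times the highest of the 8 adenine libraries. Its log2 fold change in CKD, -11.71 ± 0.37 (SE), adjusted p = 1.07e-11, was the lowest among the 53 tested, and colchicine over CKD was not called (0.47 ± 0.70 (SE), adjusted p = 0.666). Slco1a6, its neighbour on chromosome 6, fell from 165 to 227 CPM in the controls to 11.6 to 19.1 CPM in CKD (-3.72 ± 0.34 (SE), adjusted p = 1.37e-06). With colchicine it was at 8.15, 3.58, 4.11 and 12 CPM, lower than in CKD by 1.13 on the log2 scale (SE 0.33, adjusted p = 0.0437), with colchicine replicate 4 inside the CKD range. That call was lost without any single CKD library.

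Slco4c1, a basolateral carrier of digoxin and thyroid hormone, stood at 11.5, 9.32, 10.7 and 14.1 CPM in the controls, 3.2, 3.1, 2.23 and 2.77 CPM in CKD and 1.82, 0.471, 0.363 and 0.557 CPM with colchicine. All 3 groups were separate, and colchicine replicate 1 stood above the other 3 colchicine libraries. It fell in CKD (-2.02 ± 0.34 (SE), adjusted p = 1.13e-04) and had the lowest value among the members called for colchicine over CKD (-1.83 ± 0.38 (SE), adjusted p = 0.00914). Slco3a1, a widely expressed prostaglandin and thyroid hormone carrier, stood at 237, 249.9, 238 and 234 CPM in the controls, 99, 102, 97.8 and 102 CPM in CKD and 91.3, 107, 115 and 110.3 CPM with colchicine. It fell in CKD (-1.26 ± 0.07 (SE), adjusted p = 7.18e-10), showed no called difference between colchicine and CKD (0.08 ± 0.07 (SE), adjusted p = 0.472), and made up the largest share of summed member CPM in both adenine groups. Slco4a1 fell by 1.07 and Slco1a4 by 1.76 on the log2 scale in CKD (adjusted p = 1.13e-06 and 3.97e-04).

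Of the 3 Slco genes that rose, Slco2a1 is the prostaglandin transporter that clears prostaglandins for breakdown. It stood at 26.8, 21.3, 24 and 24.2 CPM in the controls, 65.6, 62, 64.5 and 50.2 CPM in CKD and 65.2, 71.7, 57.4 and 62.3 CPM with colchicine. Every adenine library lay above every control, and colchicine overlapped CKD. The rise in CKD was 1.33 ± 0.10 (SE), adjusted p = 1.43e-08. Slco2b1, a broad carrier of steroid sulfates and drugs, stood at 27.7, 18.7, 19.5 and 21.1 CPM in the controls, 55.6, 59.6, 54.6 and 52.6 CPM in CKD and 34.4, 47.3, 47.8 and 36.2 CPM with colchicine. It rose in CKD (1.35 ± 0.13 (SE), adjusted p = 2.75e-07) and was lower with colchicine than in CKD (-0.42 ± 0.13 (SE), adjusted p = 0.038), with all 3 groups apart. The latter call was lost in 9 of 19 alternatives, among them without any single CKD library, with adjusted p of up to 0.189.

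Slco5a1, an orphan member, stood at 0.175, 0, 0.342 and 0 CPM in the controls, 2.18, 1.92, 2.29 and 1.14 CPM in CKD and 4.97, 2.5, 2.26 and 2.4 CPM with colchicine. The controls held 0 to 5 counts, so the size of its rise in CKD (3.94 ± 0.62 (SE), adjusted p = 4.41e-05) depends on few reads, while each adenine library lay above 1 CPM. Beside these rises stood the macrophage sum given above, with 10 of 10 markers called higher in CKD. The endothelial markers summed to 503 to 562 CPM in the controls and 348 to 381 CPM in CKD, with 7 of 8 called lower. Fibroblast and T cell markers were called higher in 6 of 6 and 5 of 5. The part of any of these cell types in the 3 rises was not tested.

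ABC pumps use ATP to export their substrates. Abcb1a and Abcb1b are the 2 mouse genes for P-glycoprotein, the drug pump of the brush border and of capillaries. Abcb1a stood at 3.96, 5.14, 4.72 and 5.45 CPM in the controls, 6.93, 5.31, 5.12 and 5.58 CPM in CKD and 5.3, 4.52, 4.87 and 4.49 CPM with colchicine. Its groups overlapped throughout, and no comparison was called (CKD over control 0.25 ± 0.14 (SE), adjusted p = 0.137). Abcb1b stood at 3.61, 5.35, 2.74 and 4.58 CPM in the controls, 9.67, 10.4, 9.91 and 6.63 CPM in CKD and 6.25, 4.64, 4.71 and 5.08 CPM with colchicine. CKD lay above both other groups in every library, with log2 fold changes of 1.16 ± 0.20 (SE), adjusted p = 9.26e-05 over control, and -0.83 ± 0.19 (SE), adjusted p = 0.0115 for colchicine over CKD. Colchicine over control was 0.33 ± 0.20 (SE), adjusted p = 0.148.

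The ratio of Abcb1b to Abcb1a counts, free of library scaling, describes how the 2 genes of this pair moved relative to each other. It was 0.912, 1.04, 0.580 and 0.840 in the controls, 1.40, 1.97, 1.94 and 1.19 in CKD, and 1.18, 1.03, 0.967 and 1.13 with colchicine. CKD exceeded both other groups in every library (exact two-sided permutation p = 0.0286 and adjusted p = 0.0429 for each). The pair was chosen after its values were seen, so these p-values are not independent support. Adjusted p was 0.0857 for CKD over control without control replicate 3 or 4, and 0.0857 for colchicine against CKD without any 1 of the 4 colchicine libraries. The log2 differences then were 0.77 and 0.95 against 0.94 with all libraries, and -0.61 to -0.51 against -0.56. The genes share 21.4% of the 31-base words of Abcb1a, so reads may be split between them.

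The other Abcb genes encode mainly mitochondrial and lysosomal transporters. The mitochondrial Abcb6, Abcb8 and Abcb10 fell in CKD, by 1.40, 1.29 and 0.63 on the log2 scale, beside the lower mitochondrial share of counts. The lysosomal Abcb9 fell by 0.86, and Abcb4, a phospholipid floppase, was not called.

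In the Abcc family of multidrug resistance proteins, the apical pump Abcc2 (MRP2) fell and the basolateral pump Abcc3 (MRP3) rose. Abcc2 stood at 161, 185, 152 and 180.2 CPM in the controls, 42.9, 38.4, 51.1 and 40.2 CPM in CKD and 20.2, 13.3, 20.4 and 34.2 CPM with colchicine. Its 3 groups were apart, at -1.97 ± 0.22 (SE), adjusted p = 3.32e-06 for CKD over control and -0.98 ± 0.22 (SE), adjusted p = 0.0131 for colchicine over CKD, a call that held under all alternatives tried. Abcc3 stood at 1.98, 3.51, 2.81 and 3.3 CPM in the controls, 19.2, 21.3, 18.3 and 20.9 CPM in CKD and 19.6, 20.6, 16.9 and 14.7 CPM with colchicine. All adenine libraries lay above all controls, and CKD over control was 2.77 ± 0.16 (SE), adjusted p = 4.84e-10. Colchicine and CKD overlapped. The Abcc3 to Abcc2 ratio was 0.0123 to 0.0190 in the controls, 0.359 to 0.553 in CKD and 0.429 to 1.55 with colchicine. It was higher in CKD than in control in 4 of 4 libraries (exact permutation p = 0.0286, adjusted p = 0.0429), while colchicine against CKD gave p = 0.114. This pair too was chosen after its values were seen.

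Abcc4 (MRP4), an apical exporter of urate, cyclic nucleotides and conjugates, stood at 48.3, 52.1, 51.9 and 62.1 CPM in the controls, 71.9, 62.5, 68.1 and 62.3 CPM in CKD and 58, 46.7, 50 and 48.5 CPM with colchicine. It rose slightly in CKD (0.30 ± 0.09 (SE), adjusted p = 0.00792), where the lowest CKD library barely exceeded the highest control, and was lower with colchicine in every library (-0.38 ± 0.09 (SE), adjusted p = 0.0139). Abcc1 (MRP1), a glutathione conjugate pump, stood at 15.6, 16.2, 16.4 and 17.7 CPM in the controls, 26.2, 26.1, 25.5 and 23.6 CPM in CKD and 28.1, 26.2, 24.3 and 21.4 CPM with colchicine. It rose in CKD (0.62 ± 0.09 (SE), adjusted p = 1.62e-05), with the colchicine libraries around the same level. Abcc8, the sulfonylurea receptor, was at 0.933, 0.255, 0.479 and 0.406 CPM in the controls, 1.72, 0.89, 1.1 and 1.11 CPM in CKD and 0.598, 0.848, 0.826 and 0.557 CPM with colchicine, at low counts and with 1 control inside the CKD range. It was called higher in CKD (1.22 ± 0.38 (SE), adjusted p = 0.00966).

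Of the rest, Abcc6, Abcc9 and Abcc10 fell in CKD by 2.80, 0.95 and 0.43 on the log2 scale. The call of Abcc10 (adjusted p = 0.0113) was lost with upper-quartile scaling and turned to higher with library totals alone. Abcc6 supports pyrophosphate release, and Abcc9 is the regulatory subunit of a potassium channel of vessels. Abcc5 was not called (log2 fold change 0.06 ± 0.10 (SE), adjusted p = 0.622).

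Among the half-transporters of the Abcg family, Abcg2 (BCRP), the apical exporter of urate and drugs, stood at 354, 358, 317 and 427 CPM in the controls, 80.4, 72.8, 100.2 and 83.7 CPM in CKD and 57.6, 29.5, 38.7 and 67.1 CPM with colchicine. Its 3 groups were apart. CKD over control was -2.11 ± 0.22 (SE), adjusted p = 1.48e-06, and colchicine over CKD -0.81 ± 0.21 (SE), adjusted p = 0.0254. The latter call was lost in 7 of 19 alternatives. Abcg1, a cholesterol exporter best known in macrophages, stood at 19.1, 20.3, 25.9 and 23.5 CPM in the controls, 44.6, 46.1, 36.3 and 46.2 CPM in CKD and 42.1, 41.4, 36 and 35.3 CPM with colchicine. It rose in CKD (0.97 ± 0.11 (SE), adjusted p = 1.23e-06), where replicate 3 was lower than the other CKD libraries, and colchicine overlapped CKD.

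Abcg3, a rodent relative of Abcg2, stood at 0.641, 1.27, 0.959 and 0.754 CPM in the controls, 2.74, 2.1, 2.8 and 2.28 CPM in CKD and 3.69, 4.1, 2.38 and 2.05 CPM with colchicine. Abcg4, a sterol exporter related to Abcg1, stood at 0.0583, 0.407, 0.274 and 0.174 CPM in the controls, 0.879, 0.392, 0.447 and 0.526 CPM in CKD and 0.652, 1.11, 0.967 and 0.835 CPM with colchicine. Every adenine library of Abcg3 lay above the controls, whereas 1 control of Abcg4 lay within the CKD range. The rises in CKD were 1.44 ± 0.28 and 1.26 ± 0.47 (adjusted p = 3.45e-04 and 0.0268). The call of Abcg4 was lost without control replicate 1 or 4 or CKD replicate 1, with adjusted p of up to 0.0947. Macrophage (10 of 10), fibroblast (6 of 6) and T cell (5 of 5) markers were also called higher in CKD, beside Abcg3, Abcg4, Abcc3, Abcb1b and Slco2b1. The part of any of these cell types in the rises was not tested.

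**Figure D4:**
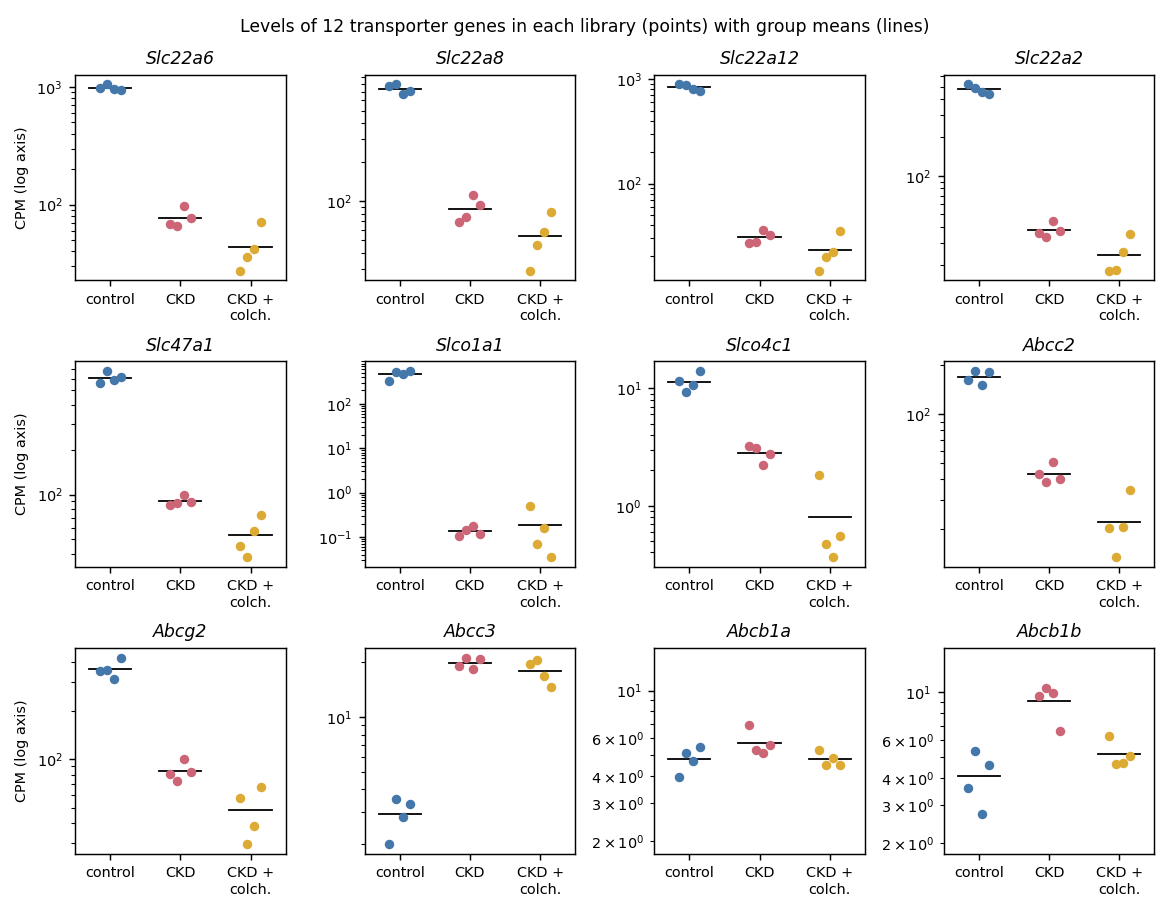
CPM of 12 transporter genes (1 panel each, log axis) in the 4 libraries of each group (points), with the group mean (line). The first 9 genes are lower in both adenine groups than in control, Abcc3 is higher in both, Abcb1a overlaps throughout, and Abcb1b is highest in CKD.

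Per kilobase of its longest coding transcript, the order of the leading genes changed. In the controls Slc22a12 led at 379 ± 26.6 CPM per kilobase (SD, n = 4), apart from Slc22a18 at 254 ± 12.7, Slc22a6 at 247 ± 14, Slc47a1 at 231 ± 19.3, Slc22a2 at 217 ± 18.5 and Slc22a8 at 214 ± 17.5. The last 5 do not differ from their neighbours beyond their spread. In CKD Slc47a1 led at 34.3 ± 2.42 CPM per kilobase, above Slc22a8 at 25.5 ± 5.67 and Slco3a1 at 21.9 ± 0.512, which lay within their spread of each other. With colchicine Slco3a1 at 23.1 ± 2.21 and Slc47a1 at 20.2 ± 5.86 CPM per kilobase were not separated beyond the spread. Slc22a12 was in CKD at 13.7 ± 1.79 CPM per kilobase.

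The question of the colchicine comparison was whether the drug moved the transporters in mice that also received adenine. No tested member was called higher. Of the 53 tested members 13 were called in colchicine over CKD, all 13 lower. Over all genes 15% were called, 6.79% higher and 8.24% lower. Among them were Slc22a2, Slc22a5, Slc22a6, Slc22a18, Slc47a1, Slco1a6, Slco2b1, Slco4c1, Abcb1b, Abcc2, Abcc4 and Abcg2. At an unadjusted p below 0.05 there were 21 members, beside 33% of all genes. No member was called higher by DESeq2 or limma-voom, which called 17 and 15 members lower.

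The called changes ran from -0.38 for Abcc4 to -1.83 for Slco4c1 on the log2 scale, and 2 were at least 2-fold, Slco4c1 and Slco1a6. Of all genes, 0.813% were called at least 2-fold lower and 0.779% at least 2-fold higher. In 9 of the 13 the groups did not overlap, and over all 53 members 11 did not overlap, beside 18.2% of all genes. Of the 13, 10 had fallen in CKD, and 3, Abcb1b, Abcc4 and Slco2b1, had risen. The comparisons of CKD with control and of colchicine with CKD share the CKD libraries. The median log2 fold change over the members was -0.20, and over all genes 0.03.

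**Figure D5:**
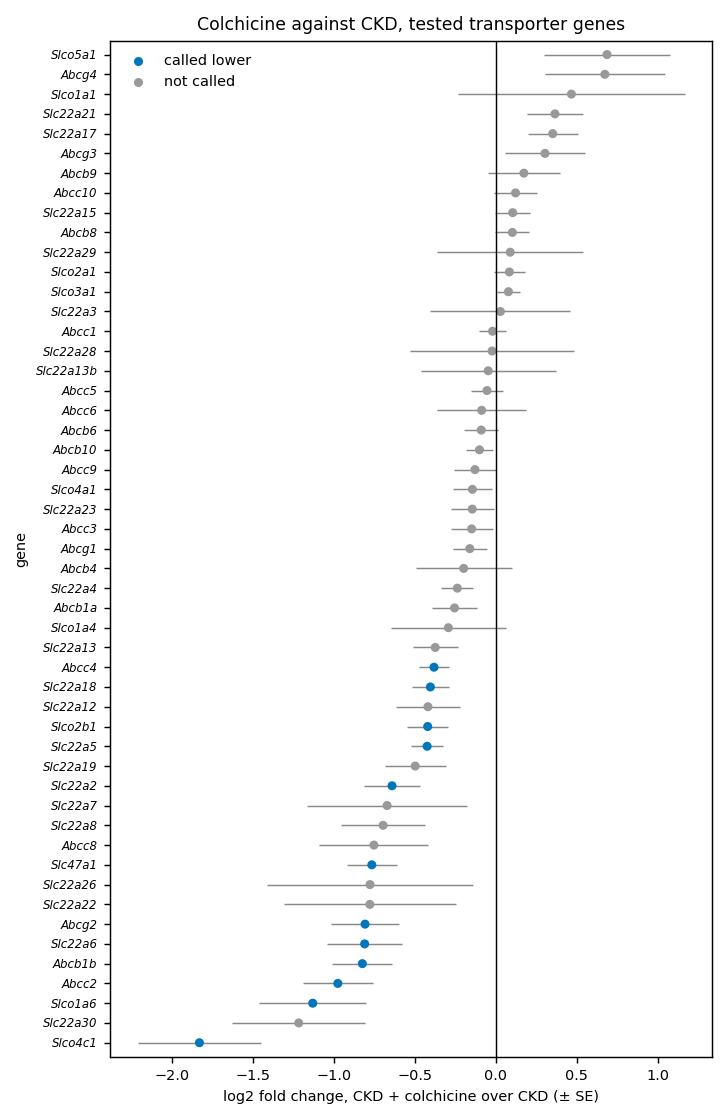
Log2 fold change of colchicine over CKD (horizontal axis, ± SE) for 51 of the 53 tested genes (vertical axis, ordered by value), with called genes in blue. Values run from 0.69 at Slco5a1 to -1.83 at Slco4c1, and 37 of the 51 points lie left of 0.

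These calls depended on single libraries. Without CKD replicate 3, 4 of the 13 stayed (Slc47a1, Abcc2, Slco4c1 and Abcb1b), without CKD replicate 1 or 4 there were 7, without colchicine replicate 3 there were 8, and without colchicine replicate 1 there were 19, of which 2, Slc22a17 and Slc22a21, were higher. Calls over all genes moved as well, from 2682 to 992 without CKD replicate 3 and to 6401 without colchicine replicate 1. Over all alternatives the log2 fold change of Abcg2 stayed between -1.02 and -0.63 and that of Slc22a6 between -1.55 and -0.65. With the labelled adenine percentage as a slope within the colchicine group, read at 2%, 8 members were called, all lower: 5 of the 13, and others that include Slc22a8 and Slc22a12. That reading holds only if the labelled percentages are true doses. Colchicine replicate 1, which carries the same 2% label as CKD, lay below all 4 CKD libraries for 28 of the 53 tested members, beside 28.9% of all genes.

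Colchicine libraries differed among themselves. Replicate 4, labelled 5% adenine, was the highest of the 4 for 7 of the 13 called members, replicate 1 for 5, and replicate 2, labelled 3%, was the lowest for 8. The proximal tubule marker sum was 888, 592, 722 and 1111 CPM in replicates 1 to 4. The 8 listed markers of loop, distal tubule and collecting duct summed to 869.5 to 1269 CPM with colchicine, against 1470.5 to 1775 CPM in CKD, with 5 of 8 called lower. The part of tubule cell number in the 13 calls was not tested.

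Against control, the colchicine group had 43 of the 53 members called, 34 lower and 9 higher, beside 70.5% of all genes, 33.4% lower and 37.1% higher. Groups did not overlap for 42, beside 62.5% of all genes. The median over the members was -1.41 and over all genes 0.10. The lowest values were -11.24 for Slco1a1, -10.44 for Slc22a7, -9.67 for Slc22a30 and -9.35 for Slc22a28, and the highest 4.63 for Slco5a1 and 2.62 for Abcc3. Abcb1b, Abcc4 and Abcc8, called higher in CKD, were not called here (0.33 ± 0.20, -0.08 ± 0.09 and 0.47 ± 0.38). Abcb1b was called higher than control with upper-quartile scaling, Abcc8 without control replicate 1, and each of them with library totals alone. Scaled by library totals alone, 20 members were called higher and 27 lower.

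Other carriers of tubule and gut, among them exchangers and carriers of dicarboxylates, urate, nucleosides, peptides and bile acids, were counted with scaffold proteins from a list of 26, of which 24 were tested. In CKD 19 were called lower and 2 higher (Slc29a1 and Slc29a4, equilibrative nucleoside transporters), beside 33.4% and 34.1% of all genes. Colchicine over CKD gave 13 lower and 0 higher, beside 8.24% and 6.79% of all genes, and colchicine over control 19 lower and 2 higher, beside 33.4% and 37.1%. The median log2 fold change of the list was -1.56 in CKD and -0.51 in colchicine over CKD, against 0.04 and 0.03 over all genes. Nherf1, a scaffold that holds apical transporters in the brush border, was at 356 ± 4.89 CPM (SD, n = 4) in control, 120.4 ± 5.05 CPM in CKD and 101 ± 10.9 CPM with colchicine, and CKD over control was -1.56 ± 0.08. Slc16a9, a carnitine and urate-linked carrier, was at 131 ± 9.99, 26.7 ± 1.62 and 11.7 ± 2.58 CPM. Its log2 fold changes were -2.30 ± 0.12 in CKD and -1.20 ± 0.13 (SE), adjusted p = 1.09e-04 in colchicine over CKD.

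Slc9a3, the sodium-proton exchanger of the brush border, and Slc5a8, a sodium-coupled monocarboxylate carrier, were also lower with colchicine than in CKD (-1.13 ± 0.18 and -1.24 ± 0.22, adjusted p = 0.00254 and 0.00489). Slc29a3, a lysosomal nucleoside carrier, fell in CKD by 1.19 on the log2 scale (adjusted p = 2.87e-09). Slc13a3, which loads the dicarboxylate that OAT1 and OAT3 exchange, was called lower in CKD and again with colchicine.

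Of 18 transcription factors known to act on transporter genes, 17 were tested. In CKD 11 were lower and 4 higher (Ahr, Arnt, Nfe2l2 and Cebpb), beside 33.4% and 34.1% of all genes. Colchicine over CKD gave 6 lower and 0 higher, beside 8.24% and 6.79%, and colchicine over control 11 lower and 4 higher, beside 33.4% and 37.1%. The median of the list was -0.82 in CKD and -0.40 in colchicine over CKD. Hnf4a, the nuclear receptor of the direct repeat, was at 463 ± 28.4 CPM in control, 118 ± 9.07 CPM in CKD and 63 ± 16.7 CPM with colchicine, with -1.98 ± 0.15 in CKD and -0.90 ± 0.15 (SE), adjusted p = 0.00289 in colchicine over CKD.

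Nr1h4 (FXR), the bile acid receptor, was at 179 ± 11.6, 50.1 ± 3.2 and 29.8 ± 6.04 CPM, and both steps were called (-1.84 ± 0.12 and -0.75 ± 0.12 (SE), adjusted p = 0.00195). Ppara, the fatty acid receptor, was at 65.6 ± 11, 36.8 ± 4.09 and 15.6 ± 1.96 CPM, and was lower with colchicine than in CKD by 1.24 on the log2 scale (adjusted p = 8.45e-05). Rxra, the shared partner of these receptors, fell in CKD (-0.82 ± 0.07 (SE), adjusted p = 2.30e-08) and was not called between colchicine and CKD. Nfe2l2 (NRF2), which acts on antioxidant elements, was at 87.7 ± 9.79, 171 ± 4.28 and 129 ± 26.4 CPM, higher in CKD (0.96 ± 0.12) and lower with colchicine than in CKD (-0.40 ± 0.12 (SE), adjusted p = 0.0351). No link between a factor and a transporter was tested.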

How the data were processed

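Whole-kidney RNA-seq was analysed in 12 libraries, 4 per group, grouped and numbered by the sample titles; all carry batch 1 in the labels. The authors deposited 1 column of expected counts per gene symbol for each library (estimated counts in whole numbers, taken as rounded before deposit). Per the labels' protocols, RNA was extracted with RNAiso Plus and was sequenced after CORALL library preparation. Per the submitters' processing notes, fastp, STAR, Salmon and the GRCm39 build were used; tool versions and the annotation were not given in the sources used here. All 28 values of 1000000 or more are multiples of 10, and no member is among them.

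Counts were used as deposited in edgeR 4.0.16 (R 4.3.3), with filterByExpr at a minimum count of 10, TMM factors and a robust quasi-likelihood fit of 3 group means to all 12 libraries. F tests were two-sided, with Benjamini-Hochberg adjustment over 17841 genes and a threshold of 0.05; the code was tested on simulated data. CPM is the deposited count per 1000000 of the TMM-scaled total, without adjustment for gene length. The SE of a log2 fold change was derived from the F statistic. Ratios between 3 pairs of members, chosen after their values were seen, were compared on the log2 scale by exact two-sided permutation over libraries, adjusted over 9 tests. No library was imputed or left out of the main fit.

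Symbols were matched to RefSeq GRCm38.p6 (69 of 69 members) for neighbours and promoters, and to GENCODE vM21 transcripts for length and shared 31-base words; coordinates are those of GRCm38.p6 and not of the authors' build. Protein sequences were not used here.

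Named with values in every library were 21 members fixed by role, the 8 lowest and 8 highest called log2 fold changes in CKD over control, and 11 of the 13 called in colchicine over CKD, taken by smallest p; Slco1a6 was named after its values were seen. A few genes are counted but not reported here by name. Members, gene lists and tests were chosen with earlier results of these data known. Alternatives were RLE, upper-quartile and library-total scaling, other count filters, mitochondrial transcripts left out, the replicate number as a block, a slope on labelled adenine, fits of only 8 libraries, limma-voom (limma 3.58.1), DESeq2 1.42.0 and leaving out each library.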

Additional observations from a re-analysis of the deposited data

Results flagged for a closer look

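A single library stood apart from the other 3 of its group, by Dixon's criterion at 95%, in 4 of 93 sets of 4 values (31 named genes in 3 groups), or 4.3%; chance alone gives about 1 in 20. Slco4c1 was at 1.82 CPM in colchicine replicate 1 and at 0.363 to 0.557 CPM in the other 3 colchicine libraries. Slc22a26 was at 1.52 CPM in the same library and at 0.141 to 0.322 CPM in the others. Slco5a1 was at 4.97 CPM there and at 2.26 to 2.5 CPM in the others. Colchicine replicate 1 is the library labelled with 2% adenine. Abcg1 was at 36.3 CPM in CKD replicate 3, below the 44.6 to 46.2 CPM of the other CKD libraries.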

How the results depend on the processing

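Over the 31 named members, 551 of 556 recomputed CKD against control values kept their direction and their side of the threshold, as did 530 of 583 for colchicine against CKD and 549 of 556 for colchicine against control. Members that were not called count as kept where they stayed uncalled. In colchicine against CKD, 44 values lost their call, all among the 11 named members called there, and 9 gained one. Slco2b1 lost its call in 9 of 19 alternatives and Slc22a6 in 8 of 19. Scaling by library totals only moved members called higher to 20 in CKD against control and to 20 in colchicine against control, and turned the log2 fold change of Abcb1a and Abcc4 in colchicine against control to 1.02 and 0.95. TMM factors, which that scaling leaves out, were 0.586 to 0.646 in the controls, 1.23 to 1.27 in CKD and 1.21 to 1.32 with colchicine. The cause of this group difference in factors, or of the changes under the slope on labelled adenine, was not tested. For colchicine against CKD, members called numbered 8, all 8 lower, with the slope on labelled adenine read at 2%, and 8, all 8 lower, with only the 8 libraries compared (fewer samples). Leaving out each library in turn gave 4 to 19 members called, 4 to 17 lower and 0 to 2 higher, beside 992 to 6401 calls over all genes (573 to 3519 lower, 419 to 2882 higher); those ranges were 45 to 47 for CKD against control and 42 to 45 for colchicine against control. DESeq2 called 50, 17 and 47 members in the 3 comparisons and limma-voom 46, 15 and 42. With the replicate number as a block, 48, 12 and 42 members were called; Slco1a6 and Slco2b1 were lost in colchicine against CKD. Deviations of libraries of the same number had correlations of -0.279 to 0.189. Libraries of different numbers were not compared, so this cannot decide whether the numbers pair the libraries. Leaving out a library kept the direction of all 3 ratios. The Abcb1b to Abcb1a ratio lost its call as given above, and against colchicine and control was called without control replicate 2 (adjusted p = 0.0367); the Abcc3 to Abcc2 ratio was called for colchicine against CKD without colchicine replicate 4 (adjusted p = 0.0367). Levels under 1 CPM rest on few counts, and small differences there were not detectable at this depth.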
